A study of Mus musculus with 32 samples.

Results

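The genes described here are the numbered Zfp genes of the mouse, that is, autosomal protein-coding genes whose GENCODE vM21 symbol is Zfp followed only by digits. Zfp36 was left out, since it encodes an RNA-binding protein of another family. A gene entered when its level reached 1 CPM, the count scaled to a common library total, in at least 4 of the 32 libraries. The rule took 279 of the 357 genes of this name, out of 55487 gene identifiers in the tables. The 78 genes below the level included 7 without a count in any library. Because the level chose the members, their being transcribed is not a result. The rule compared no groups, but the family was chosen with earlier results of these data known. It also let in 14 members through libraries of the line called mutant below alone. Just inside the limit stood Zfp11, which reached 1 CPM in 4 libraries, and Zfp558 and Zfp988 with 8 libraries each. Just outside stood Zfp467 and Zfp551 with 3 libraries each, Zfp112 with 2 and Zfp580 with 1.

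Most proteins of this family carry an array of C2H2 zinc fingers, each a short loop held by a zinc ion that reads a few bases of DNA. Many also carry a KRAB box, which binds TRIM28, a scaffold that brings the histone methyltransferase SETDB1 and other silencing proteins to DNA. KRAB zinc finger genes lie in tandem clusters that expand quickly in mammals, and those with known targets mostly silence retroelements and imprinted regions. Members without a KRAB box have more varied work, from mitosis to RNA processing and immune signalling.

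RNA was sequenced from 2 immortalised progenitor lines of mouse fetal liver. The line hi-77-/- lacks the -77 enhancer of Gata2 on both alleles and is called mutant; the line hi-77+/+ has it and is called wild-type. Both lines grew in OPTI-MEM with serum, SCF-conditioned medium, b-estradiol and G418, conditions that keep an estrogen-dependent HOXB8 protein active and the progenitors dividing. Cells of each line received for 4 h IFNg at 1 ng/ml, Pam3CSK4 at 100 ng/ml, both agonists, or vehicle. IFNg is interferon gamma, and Pam3CSK4 is a lipopeptide ligand of TLR2 with TLR1. Each of the 8 groups had 4 libraries. Each genotype was a single line, so a difference between genotypes cannot be told apart from a difference between lines. Nothing in the labels says whether the libraries of a group were separate cultures, and the p-values therefore reflect only how much these samples varied, which may be technical variation.

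Library totals ranged over 44.18 to 71.42 M counts, and no pair of libraries of the same group agreed within sampling noise. Gata2, whose enhancer was deleted, had 7.52 ± 0.679 CPM in mutant cells and 43.4 ± 8.27 CPM in wild-type cells with vehicle (SD, n = 4 each). Throughout, levels are CPM after TMM scaling of the library sizes, and differences are log2 fold changes ± SE. P-values are from edgeR's quasi-likelihood test, adjusted by Benjamini-Hochberg over the 14869 genes tested, and called means under 0.05. The lines also differed in markers of blood cell types. Summed over 8 genes each, erythroid markers were at 1.22 to 2.47 CPM in mutant libraries, with Car1 at 0 in all 16, and at 59.2 to 106 CPM in wild-type libraries. Mast cell and basophil markers summed to 99.0 to 127 CPM in mutant and 645 to 759 CPM in wild-type libraries, with Fcer1a at 0 in all mutant libraries. Neutrophil markers summed to 1640 to 2040 CPM in mutant and 2310 to 2780 CPM in wild-type libraries, but that sum is carried by abundant Mpo and Prtn3, at -0.37 and -0.85 on the log2 scale with vehicle, while the other 6 were lower in mutant cells by -3.09 to -5.15. B lymphoid markers summed to 201 to 294 CPM in mutant and 34.6 to 45.1 CPM in wild-type libraries, and progenitor markers to 3110 to 3490 and 2640 to 2800 CPM. Of the stromal and the hepatocyte markers, 1 of 8 each passed 1 CPM in either line. The part of these cell type differences in the line differences below was not tested. In bulk RNA, fewer cells of a type and less RNA per cell cannot be told apart.

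The 279 members spread over 19 autosomes, with 70 on chromosome 7, 35 on chromosome 17 and 27 on chromosome 13. Reading frames of their GENCODE transcripts held a KRAB box in 168 members, called where at least 9 of 13 conserved positions matched, and none in 111. The number of C2H2 fingers had a median of 12 in members with a KRAB box and 7 in those without, and the most was 40, in Zfp142. Fingers were counted only in the longest reading frame of a gene. The C2H2 pattern was not found there in 4 members, Zfp330, Zfp503, Zfp703 and Zfp839. Members took 0.963 to 1.07% of protein-coding counts in mutant libraries and 0.859 to 0.932% in wild-type libraries. Per kilobase of transcript their mean level had a median of 4.86 CPM, against 11.7 CPM for 10005 other autosomal protein-coding genes at the same limit. Members with a KRAB box had a median of 4.52 CPM per kb and those without 5.6 CPM per kb.

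The 5 members of highest level per kilobase carry no KRAB box. Zfp207, which binds microtubules and aids the alignment of chromosomes in mitosis, led with 192 CPM per kb. Zfp330, a nucleolar protein, had 60.3 CPM per kb, Zfp422 had 52.9, Zfp146, built almost solely of fingers, had 49.3, and Zfp91, a ubiquitin ligase of non-canonical NF-kB signalling, had 39.5. With vehicle, Zfp207 stood at 414, 389, 387 and 387 CPM in mutant libraries and at 413, 381, 342 and 394 CPM in wild-type libraries. The lines overlapped, with a difference of 0.04 ± 0.05 that did not pass the test (adjusted p = 0.47 by edgeR). Zfp91 stood at 163, 157, 165 and 163 CPM in mutant libraries and at 235, 223, 211 and 222 CPM in wild-type libraries, without overlap, a difference of -0.46 ± 0.03 (adjusted p = 1.6e-14).

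Some KRAB members were silent in wild-type cells. The rule for silence was below 0.1 CPM in all 16 libraries of a line and at least 1 CPM in all 16 of the other. It found 6 members, Zfp109, Zfp709, Zfp938, Zfp970, Zfp979 and Zfp987, all silent in wild-type cells and all with a KRAB box. That is 2.15% of the members, while among the other autosomal protein-coding genes 35 of 10005, or 0.350%, were silent in wild-type cells. In mutant cells 0 members were silent, against 17 of the other genes, or 0.170%. The 6 members entered the set through their mutant libraries alone and therefore had to differ, so these counts describe and support nothing. No function is given here for the 6 genes.

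The sequences upstream of their starts are shown to set the starts of silent genes beside those of related genes, together with Zfp345, which stood just outside the rule, and with Zfp982 and Zfp984, members of the chromosome 4 cluster that both lines transcribed. Each is taken from RefSeq and is the 250 bases before the start, in build GRCm38.p6, 5′ to 3′ on the gene's strand, with CpG dinucleotides in capitals.

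Zfp109, chr7:24237599-24237848, minus strand: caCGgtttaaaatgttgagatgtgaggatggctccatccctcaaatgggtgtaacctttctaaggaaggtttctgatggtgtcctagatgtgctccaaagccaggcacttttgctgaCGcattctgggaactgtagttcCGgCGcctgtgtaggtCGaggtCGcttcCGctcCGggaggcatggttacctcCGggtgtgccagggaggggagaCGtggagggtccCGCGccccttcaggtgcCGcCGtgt
Zfp709, chr8:71881818-71882067, plus strand: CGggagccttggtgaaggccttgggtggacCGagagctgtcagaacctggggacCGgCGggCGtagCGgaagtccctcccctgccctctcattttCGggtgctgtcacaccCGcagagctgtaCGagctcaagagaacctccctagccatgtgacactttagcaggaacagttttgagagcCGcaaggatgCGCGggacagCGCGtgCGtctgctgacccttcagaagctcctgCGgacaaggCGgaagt
Zfp938, chr10:82241281-82241530, minus strand: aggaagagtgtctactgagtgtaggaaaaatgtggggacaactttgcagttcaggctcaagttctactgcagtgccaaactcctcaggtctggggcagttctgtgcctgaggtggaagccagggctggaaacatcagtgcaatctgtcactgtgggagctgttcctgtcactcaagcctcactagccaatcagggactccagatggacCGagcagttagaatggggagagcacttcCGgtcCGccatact
Zfp970, chr2:177464492-177464741, plus strand: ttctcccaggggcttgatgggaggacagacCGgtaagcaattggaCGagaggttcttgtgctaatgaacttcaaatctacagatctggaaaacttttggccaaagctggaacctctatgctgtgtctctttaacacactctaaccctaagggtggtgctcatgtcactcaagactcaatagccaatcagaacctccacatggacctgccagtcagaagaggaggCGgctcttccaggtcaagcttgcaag
Zfp979, chr4:147642509-147642758, minus strand: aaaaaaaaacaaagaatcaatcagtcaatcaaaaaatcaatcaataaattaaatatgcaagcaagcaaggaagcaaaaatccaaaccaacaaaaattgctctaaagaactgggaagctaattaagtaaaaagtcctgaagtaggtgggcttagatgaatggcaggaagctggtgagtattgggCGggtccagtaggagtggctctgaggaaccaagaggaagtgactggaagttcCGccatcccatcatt
Zfp987, chr4:146097062-146097311, plus strand: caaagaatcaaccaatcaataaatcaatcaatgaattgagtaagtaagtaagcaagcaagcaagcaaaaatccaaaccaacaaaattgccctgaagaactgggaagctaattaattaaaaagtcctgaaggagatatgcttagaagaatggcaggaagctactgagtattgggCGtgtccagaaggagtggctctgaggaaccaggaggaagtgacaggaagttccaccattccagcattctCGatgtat
Zfp345, chr2:150485064-150485313, minus strand: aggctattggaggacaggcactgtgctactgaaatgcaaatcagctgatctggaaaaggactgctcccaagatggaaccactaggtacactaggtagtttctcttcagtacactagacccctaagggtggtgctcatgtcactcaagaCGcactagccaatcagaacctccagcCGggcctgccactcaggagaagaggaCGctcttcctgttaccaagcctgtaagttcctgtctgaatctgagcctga
Zfp982, chr4:147492167-147492416, plus strand: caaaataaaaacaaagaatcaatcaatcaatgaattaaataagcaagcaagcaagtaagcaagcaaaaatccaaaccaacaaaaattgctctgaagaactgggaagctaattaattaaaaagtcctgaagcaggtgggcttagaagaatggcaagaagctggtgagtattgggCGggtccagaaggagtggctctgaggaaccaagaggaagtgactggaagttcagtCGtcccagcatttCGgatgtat
Zfp984, chr4:147809789-147810038, minus strand: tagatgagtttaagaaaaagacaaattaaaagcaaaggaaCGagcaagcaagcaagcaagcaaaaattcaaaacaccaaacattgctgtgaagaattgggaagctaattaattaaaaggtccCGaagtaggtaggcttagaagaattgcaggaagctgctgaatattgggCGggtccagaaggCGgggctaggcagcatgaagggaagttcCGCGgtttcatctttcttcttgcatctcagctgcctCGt

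These upstream stretches were unlike in CpG content. Zfp709 held 17 CpG and Zfp109 held 14, while Zfp938 and Zfp970 held 3 each and Zfp979 and Zfp987 held 2 each. Zfp345 also held 3, Zfp982 held 3 and Zfp984 held 7. Over the window of 300 bases that ends 50 bases past the start, the median number of CpG was 15 in 214 members with a RefSeq window, 11 in the 137 of them with a KRAB box, 21 in the 77 without, and 16 in all 13818 promoters looked at. Aligned end to end, the 250 bases of Zfp987 were 87.4% identical to those of Zfp982, those of Zfp979 were 83.5% identical to Zfp982 and 80.7% to Zfp987, and those of Zfp984 were 73.9% identical to Zfp982. On chromosome 2, Zfp970 and Zfp345 were 62.0% identical, with a shared run of 31 bases. The letters CCAATCAG, searched on both strands after the sequences had been seen, lay in the 300-base windows of Zfp938, Zfp970 and Zfp345. They lay in 29 of the 137 windows of KRAB members, 21.2%, in 3 of the 77 others, 3.9%, and in 5.44% of all 13818 windows. The match is a description of letters and not of a bound factor.

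Zfp979 (ENSMUSG00000066000.12, chr4:147611937-147642513, minus strand) was the most abundant of the silent members in mutant cells. With vehicle it stood at 19.8, 17.2, 15.8 and 16.3 CPM in mutant libraries and at 0, 0, 0 and 0.0238 CPM in wild-type libraries. All 16 mutant libraries held it, and in wild-type cells 1 count was found over 16 libraries, against 19827 counts over the 16 mutant libraries. The ratio of the pooled levels was 20500, with a 95% counting interval of 3680 to 810000. Zfp987 (ENSMUSG00000066009.8, chr4:146097298-146126621, plus strand) stood at 10.1, 10.7, 10.1 and 8.57 CPM in mutant libraries and at 0, 0.0282, 0 and 0.0238 CPM in wild-type libraries with vehicle. It had 10141 counts in mutant and 4 in wild-type libraries, a ratio of 2620 (1020 to 9630). Zfp970 (ENSMUSG00000078866.10, chr2:177464733-177478129, plus strand) stood at 8.16, 7.58, 8.79 and 7.67 CPM in mutant libraries and at 0.0398, 0, 0.0162 and 0 CPM in wild-type libraries, with 7324 and 10 counts in all, a ratio of 758 (412 to 1580). For these 3 genes most values were not whole numbers, because reads were shared with near-identical genes, and their levels are uncertain to that extent.

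Zfp938, Zfp709 and Zfp109 had whole counts. Zfp938 (ENSMUSG00000062931.15, chr10:82224850-82241280, minus strand) stood at 7.04, 7.33, 5.89 and 6.23 CPM in mutant libraries with vehicle and at 0 in all 16 wild-type libraries. Its 6348 mutant counts set against a floor of 3 counts over the 16 wild-type libraries, or 0.00322 CPM, gave a level at least 2190-fold higher in mutant cells. Zfp109 (ENSMUSG00000074283.5, chr7:24227572-24237560, minus strand) stood at 2.6, 2.73, 2.48 and 2.39 CPM in mutant libraries and at 0 in all 16 wild-type libraries, at least 769-fold higher by the same floor. Both genes were thus found in every mutant library and in no wild-type library, whatever the treatment. Zfp709 (ENSMUSG00000056019.12, chr8:71882019-71895727, plus strand) stood at 4.56, 4.17, 3.94 and 5.01 CPM in mutant libraries and at 0, 0, 0.0641 and 0 CPM in wild-type libraries with vehicle. Its 3694 mutant and 7 wild-type counts gave a ratio of 546 (265 to 1360). Intervals and floors cover counting error only.

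**Figure D1:**
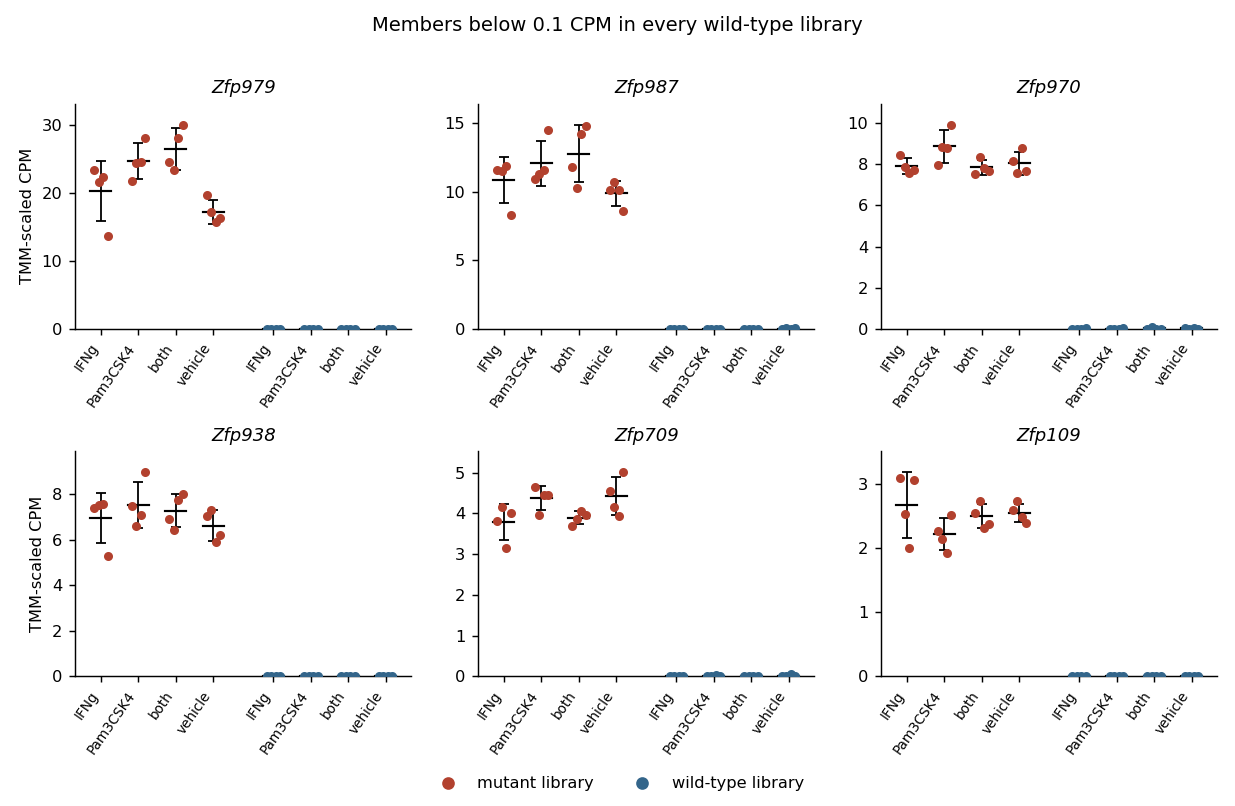
Levels of the 6 members below 0.1 CPM in every wild-type library; points are libraries (n = 4 per group), bars the mean and SD, the vertical axis TMM-scaled CPM, mutant groups left and wild-type groups right. Zfp979 runs to 30.1 CPM in mutant cells, while wild-type points lie at or near 0 with IFNg, with Pam3CSK4, with both agonists and with vehicle.

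The rule for silence kept the 6 members below 0.1 CPM in wild-type cells with every treatment, so their staying below it is not a result. In wild-type cells the highest single value of any of the 6 was 0.0687 CPM, for Zfp970 in a library with both agonists. Zfp709 was called lower with both agonists in wild-type cells, at -3.25 ± 1.31 (adjusted p = 0.043 by edgeR), which rests on 4 counts in 1 vehicle library and 0 counts elsewhere in the 2 groups. In mutant cells Zfp979 rose with Pam3CSK4, at 21.8, 24.4, 24.6 and 28.2 CPM with Pam3CSK4, against 19.8, 17.2, 15.8 and 16.3 CPM with vehicle. The groups did not overlap, a difference of 0.52 ± 0.14 (adjusted p = 0.009 by edgeR). With both agonists Zfp979 had 24.6, 23.4, 28.1 and 30.1 CPM in mutant cells, 0.62 ± 0.14 above vehicle (adjusted p = 0.0011). In mutant library 4 with IFNg, Zfp938 had 5.31 CPM and Zfp987 had 8.33 CPM, below the other libraries of that group at 7.41 to 7.58 and 11.5 to 11.9 CPM.

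A further 5 members, Zfp229, Zfp345, Zfp558, Zfp760 and Zfp988, stayed below 0.5 CPM in all wild-type libraries but missed the rule for silence. All 11 carry a KRAB box, and in mutant cells 0 members stayed below 0.5 CPM. These 5 also entered the set through mutant libraries alone and had to differ, so the counts and the ratios below describe and support nothing. The share of other genes at the limit of 0.5 CPM is not given here. Zfp345 had 7984 counts in mutant and 38 in wild-type libraries, a ratio of 217 (158 to 307). Zfp760 had 1603 and 28 counts, a ratio of 59.2 (40.8 to 89.4), and Zfp229 had 1083 and 164 counts, a ratio of 6.83 (5.79 to 8.1). Zfp760 and Zfp229 lie next to each other on chromosome 17, 5.2 kb apart. Among 62 other zinc finger genes with a KRAB box, 1 was silent in wild-type cells: Gm14403, which lies 20.1 kb from Zfp970 and averaged 2.21 CPM in mutant and 0.00107 CPM in wild-type libraries.

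Some neighbours of the silent members differed between the lines and others did not. On one side of Zfp109 the weakly transcribed Zfp111 averaged 0.199 CPM in mutant and 0.00421 CPM in wild-type libraries. On the other side Zfp61, 53.5 kb away, averaged 9.46 ± 0.924 CPM in mutant and 10.5 ± 0.924 CPM in wild-type libraries (SD, n = 16 each), and its difference with vehicle did not pass the test (adjusted p = 0.99 by edgeR). Both neighbours of Zfp938 were higher in mutant cells with vehicle. AU041133 averaged 4.75 CPM in mutant and 0.328 CPM in wild-type libraries (adjusted p = 1.1e-17), and Gm4924 averaged 8.93 and 2.44 CPM (adjusted p = 2.5e-12). Zfp985, next to Zfp979, averaged 0.344 CPM in mutant libraries and was at 0 in wild-type libraries. Fcho1, 156.3 kb to the left of Zfp709, was lower in mutant cells by -0.47 ± 0.09 (adjusted p = 5.4e-05). Beside Zfp345, Zfp442 was lower in mutant cells by -0.58 ± 0.12 (adjusted p = 7.8e-05), and Cst7, a cysteine protease inhibitor, averaged 103 CPM in mutant and 102 CPM in wild-type libraries.

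The chromosome 4 cluster, chr4:145510759-147848366 in mm10, holds 18 numbered genes, of which 9 were members. With vehicle, 5 of the 9 were called higher in mutant cells and 1 lower, but 3 of the 5, Zfp979, Zfp987 and Zfp988, entered through mutant libraries alone. Those 3 with Zfp991 and Zfp992 were also called higher in each other treatment, and with Pam3CSK4 and with both agonists Zfp933, Zfp982 and Zfp993 were called higher too. Zfp991 stood at 116, 113, 107 and 102 CPM in mutant libraries and at 4.76, 3.87, 2.99 and 4.13 CPM in wild-type libraries, a difference of 4.81 ± 0.15 (adjusted p = 8.4e-20). Zfp992 stood at 66.3, 60.1, 58.2 and 58.7 CPM in mutant and at 19.3, 15.9, 14.7 and 19.5 CPM in wild-type libraries, 1.82 ± 0.10 (adjusted p = 1.5e-14). Neither gene overlapped between lines in any treatment. Between them and silent Zfp979 lies Zfp982, whose values over 16 libraries had a lowest, median and highest of 4.7, 6.61 and 8.57 CPM in mutant and 4.69, 5.57 and 6.76 CPM in wild-type cells. Its lines overlapped, and the difference with vehicle was 0.08 ± 0.10 (adjusted p = 0.54), while with Pam3CSK4 it was 0.31 ± 0.10 (adjusted p = 0.0078). Zfp984, 111.5 kb from Zfp979, was lower in mutant cells with vehicle, -0.41 ± 0.12 (adjusted p = 0.006), and Zfp933 at the end of the cluster differed by -0.01 ± 0.06 with vehicle (adjusted p = 0.86) and by 0.41 ± 0.06 with Pam3CSK4 (adjusted p = 1.3e-07). In this cluster 7 of the 9 members had mostly values that were not whole, so part of a difference may belong to a near-identical neighbour; Zfp982 and Zfp933 had whole counts. A lincRNA, Gm26624, overlaps Zfp991 on the same strand over 44302 bases.

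Clusters elsewhere differed in how their members moved. With clusters defined as runs of at least 5 members with gaps of at most 500 kb, 14 clusters held 127 members. Members that had passed the level limit through mutant libraries alone, which had to be higher there, are left out of these counts. Inside the clusters 47 of 119 members were then called higher and 17 lower in mutant cells with vehicle, with a median difference of 0.131, and outside them 48 of 145 were called higher and 34 lower, with a median of 0.065; the contrast was not tested. On chr17:21008903-23599487, 5 of 17 were called higher and 5 lower. On chr13:67038596-67827002, 11 of 17 members were called higher and 0 lower, and on chr7:29768552-30169750 it was 8 of 14 higher and 0 lower. On chr8:69209038-69791178, 3 of 5 members were called lower and 0 higher. Over all genes tested, edgeR called 24.4% higher and 29.3% lower in mutant cells with vehicle.

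**Figure D2:**
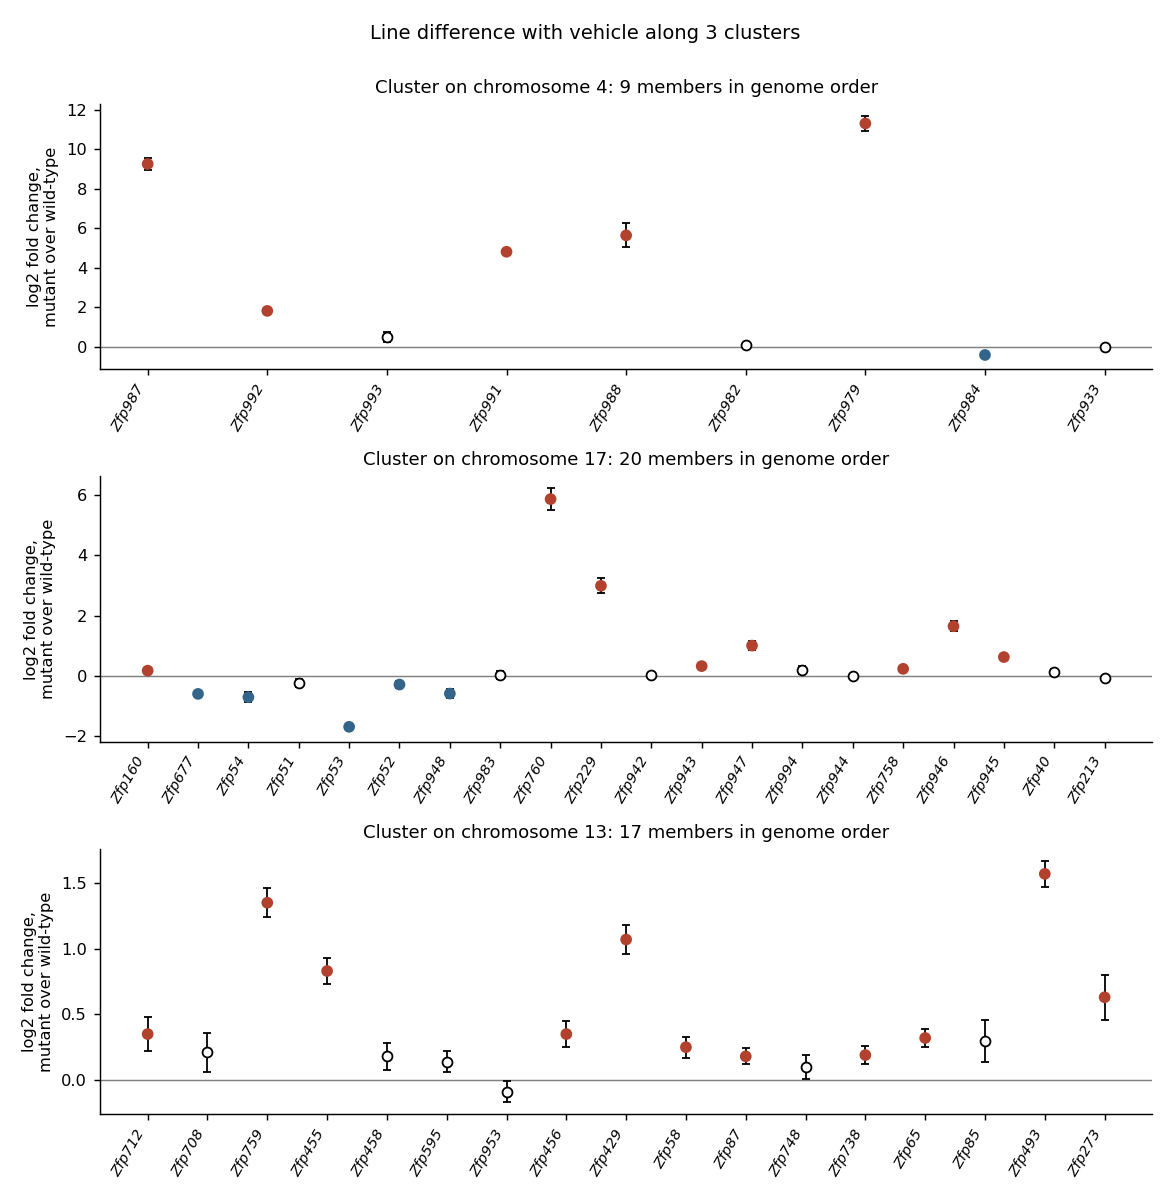
Log2 fold change of mutant over wild-type cells with vehicle for the members of 3 clusters in genome order; bars are the SE of the edgeR fit, red marks called higher, blue called lower and open circles not called. On chromosome 4 Zfp979 and Zfp987 stand high beside Zfp982 and Zfp933 near 0 (fitted values of genes at or near 0 counts depend on the prior count), on chromosome 17 Zfp53 stands at -1.68, and on chromosome 13 called members are all higher.

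For the line comparison over the family, 264 members that reached 1 CPM in at least 4 libraries of each line were counted, since 14 members had passed through mutant libraries alone and 0 through wild-type libraries alone. With vehicle, 95 of the 264 were called higher in mutant cells and 51 lower, 36 and 19.3%, against 24.4 and 29.3% of all genes tested, of which 53.7% were called in either direction. Their median difference was 0.08, against -0.01 over all genes tested. Members with and without a KRAB box gave unlike counts, a contrast that was not tested. Of 154 members with a KRAB box 68 were called higher and 24 lower, with a median of 0.15, and of 110 without it 27 were called higher and 27 lower, with a median of 0.02. Other zinc finger genes with a KRAB box gave 28 higher and 6 lower of 62. The Zbtb genes, zinc finger factors with a BTB domain, gave 7 higher and 7 lower of 35, and the Zscan and Zkscan genes 7 higher and 4 lower of 15.

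The line comparison was repeated within each treatment. In cells with Pam3CSK4, 99 of 154 KRAB members were called higher in mutant cells and 21 lower, with a median of 0.38, and of members without a KRAB box 40 were called higher and 34 lower of 110, with a median of 0.01. Over all genes tested 32.1% were called higher and 33.5% lower there, 65.6% in all. With both agonists 92 KRAB members were called higher and 20 lower, with a median of 0.27, where 30.5% of all genes were called higher and 29.7% lower, 60.2% in all. With IFNg it was 71 higher and 21 lower, with a median of 0.16, where 25.7% were called higher and 27.4% lower, 53.1% in all. In other fits the KRAB median stayed largest with Pam3CSK4 and second with both agonists, but the order of vehicle and IFNg changed in some. In the fit given next, the number called higher was largest with vehicle. Structural RNA here means all RNA of the mitochondrial chromosome, protein-coding included, together with small non-coding RNA. With its share of each library in the fit, KRAB members numbered 68 higher and 17 lower with Pam3CSK4 (median 0.21). It was 68 and 22 with both agonists (median 0.19), 59 and 24 with IFNg (median 0.11) and 70 and 28 with vehicle (median 0.13). Without wild-type vehicle libraries 1 and 4, vehicle gave 82 higher and 16 lower (median 0.24). These comparisons use separate libraries for each treatment. Of the 264, 71 were called higher in mutant cells in all 4 treatments, 54 of them with a KRAB box, and 27 lower, 13 with a KRAB box; of all genes tested, 16.1 and 19.5% were. All 16 mutant libraries lay above all 16 wild-type libraries for 29 of the 264 and below them for 12. Of all genes tested, which include genes that reached 1 CPM in 1 line only, 8.22 and 10.8% did so. Of the 29, 22 carry a KRAB box, as do 7 of the 12.

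**Figure D3:**
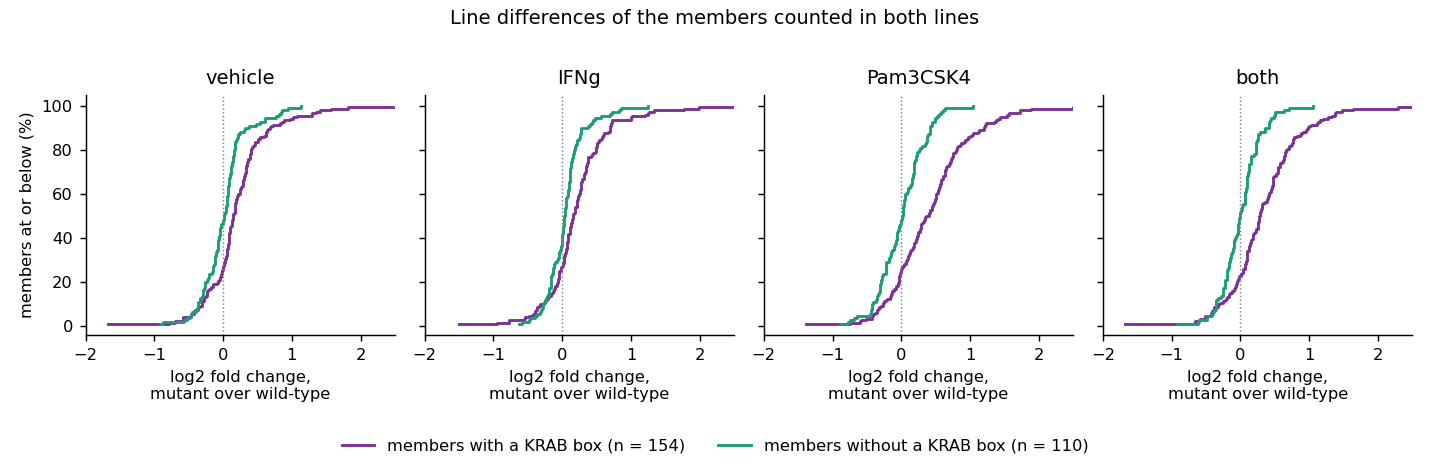
Share of members (vertical axis, %) at or below each log2 fold change of mutant over wild-type cells (horizontal axis, shown up to 2.5, which leaves Zfp991 outside), for 154 members with a KRAB box and 110 without, in each treatment. At the median the curve of KRAB members lies right of the other in each treatment, with Pam3CSK4 at 0.38 against 0.01. With the structural RNA share in the fit that KRAB median was 0.21. The left end of the KRAB curve holds Zfp53, at -1.68 with vehicle.

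Changes of at least 2-fold were mostly increases, and over all genes tested increases also outnumbered decreases, 1234 against 864 of 14869. With vehicle, 10 of the 264 were called and at least 2-fold higher in mutant cells and 1, Zfp53, at least 2-fold lower. Of all genes tested 8.30 and 5.81% were. Those shares include weakly counted genes and genes that reached 1 CPM in 1 line only, which the 264 leave out, so they are not like for like. Beside Zfp991 and Zfp992, the largest increases among the 264, called in all 4 treatments and with no overlap between lines, were Zfp493, Zfp72, Zfp759 and Zfp773, all with a KRAB box. Zfp493 stood at 9.54, 8.54, 8.94 and 8.62 CPM in mutant and at 3.17, 2.97, 3.01 and 2.86 CPM in wild-type libraries with vehicle, 1.57 ± 0.10 (adjusted p = 5.2e-16). Zfp759, on chromosome 13 as well, stood at 15, 14.2, 13.9 and 14.1 CPM in mutant and at 7.25, 4.86, 4.86 and 5.58 CPM in wild-type libraries, 1.35 ± 0.11 (adjusted p = 1.6e-12). Zfp72 was higher by 1.41 ± 0.12 and Zfp773 by 1.29 ± 0.14.

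Of the decreases in mutant cells, Zfp53 was the largest. It stood at 4.82, 4.19, 3.96 and 3.84 CPM in mutant and at 16.6, 12.6, 11.8 and 13 CPM in wild-type libraries with vehicle, -1.68 ± 0.10 (adjusted p = 3.8e-17). Zfp53 lies on chromosome 17 within the cluster where Zfp760 and Zfp229 were high in mutant cells. Zfp703, a repressor amplified in some human breast cancers as ZNF703, stood at 5.7, 6.64, 5.47 and 6.73 CPM in mutant and at 9.36, 9.95, 15.4 and 11.8 CPM in wild-type libraries, -0.92 ± 0.12 (adjusted p = 6.5e-08). Zfp276 was lower by -0.87 ± 0.05 (adjusted p = 4e-16); the Fanca gene overlaps it on the opposite strand over 1446 bases and the gene model Gm20388 on the same strand over 15551 bases, so its counts are uncertain. Zfp599 differed by -0.79 ± 0.06, Zfp677 by -0.59 ± 0.11 and Zfp866 by -0.46 ± 0.05, and in all 6 of these genes the lines did not overlap. Zfp866 had mostly values that were not whole.

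Members with known work were grouped in lists written by hand. Of 9 repressors of retroelements and imprints, 6 were members, and with vehicle 1 was called higher and 1 lower in mutant cells, with a median difference of 0.08, where 24.4 and 29.3% of all genes were. Zfp445, which guards imprinted methylation in the embryo, averaged 131 CPM in mutant and 93.9 CPM in wild-type libraries and was higher by 0.45 ± 0.03 with vehicle (adjusted p = 1.3e-13 by edgeR). Zfp961 was lower by -0.37 ± 0.05 (adjusted p = 7.9e-08), and Zfp809, which silences murine leukaemia virus in embryonic cells, differed by -0.01 ± 0.05 (adjusted p = 0.88). With Pam3CSK4, 5 of the 6 were called higher in mutant cells and 1 lower, where 32.1 and 33.5% of all genes tested were. Of 13 tested genes of an immune and blood cell list, 12 of them members, 3 were called higher and 5 lower with vehicle, with a median of -0.06. Zfp318, needed in mature B cells for the switch from IgM alone to IgM with IgD, stood at 13.3, 12.9, 13 and 14.9 CPM in mutant and at 6.11, 6.95, 7.45 and 7.53 CPM in wild-type libraries, 0.95 ± 0.06 (adjusted p = 6.9e-15). Of 13 members with general work in transcription and RNA, 3 were called higher and 3 lower, with a median of -0.03, among them Zfp638 at 0.17 ± 0.06 (adjusted p = 0.017) and Zfp574 at -0.37 ± 0.11 (adjusted p = 0.0054).

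Partners through which KRAB proteins act were counted in the same way. Of 30 corepressor and DNA methylation genes, 8 were called higher and 11 lower in mutant cells with vehicle, 26.7 and 36.7%, near the 24.4 and 29.3% of all genes tested, with a median of -0.01. Trim28 stood at 441, 466, 466 and 478 CPM in mutant and at 429, 472, 493 and 449 CPM in wild-type libraries, overlapping, with a difference of 0.01 ± 0.04 (adjusted p = 0.91 by edgeR). Setdb1 differed by -0.02 ± 0.03 (adjusted p = 0.70). With Pam3CSK4, 6 of the 30 were called higher in mutant cells and 14 lower, where 32.1 and 33.5% of all genes tested were. Trim28 then differed by -0.13 ± 0.04 (adjusted p = 0.0013 by edgeR) and Setdb1 by -0.27 ± 0.03 (adjusted p = 7e-09). The Pam3CSK4 response was called more positive in mutant cells for 4 of the 30 and more negative for 11, where 14.3 and 12.3% of all genes were. Fam208a, the TASOR subunit of the HUSH silencing complex, stood at 28.1, 26.2, 27.2 and 30.5 CPM in mutant and at 66.4, 59.6, 59.1 and 60.9 CPM in wild-type libraries, without overlap, -1.13 ± 0.05 (adjusted p = 3.5e-20). Chd3, a remodelling ATPase of the NuRD complex, stood at 3.73, 3.27, 3.81 and 3.89 CPM in mutant and at 0.138, 0.438, 0.176 and 0.548 CPM in wild-type libraries, 3.54 ± 0.20 (adjusted p = 4.2e-17). Whether these genes have a part in the differences of the members was not tested.

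Many of the members called with IFNg were called in both lines. In mutant cells 40 members were called higher and 60 lower with IFNg, where 18.3 and 14.9% of all genes tested were, 33.2% in all; their median was -0.07, against -0.01. In wild-type cells 38 were called higher and 70 lower, where 17.8 and 17.6% were, 35.4% in all, with a median of -0.07, against -0.01. The excess of decreases depended on the fit in both lines. In mutant cells KRAB members numbered 18 higher and 34 lower and the others 22 and 26. With the structural RNA share in the fit it was 24 and 26, and 18 and 22. In wild-type cells KRAB members numbered 19 higher and 42 lower and the others 19 and 28. With the structural RNA share in the fit it was 18 and 15 for KRAB members and 12 and 16 for the others. Without wild-type vehicle libraries 1 and 4 it was 19 and 16, and 17 and 27. Within a line the treatments share the vehicle libraries, while the lines share none. Called higher in both lines were 30 members, 75% of the mutant and 78.9% of the wild-type list, and called lower in both were 40, 66.7 and 57.1% of the lists; of all genes tested, 13.4 and 8.55% were called so in both lines. With opposite signs 0 members were called in both, where 0.0538% of all genes tested were called in each opposite direction. In promoter windows of 25 members called higher in both lines, the letters TTTCNNTTTC of an interferon response element lay in 0, against 3.25% of all windows, and TTCNNNGAA in 5, against 17.8% of all members' windows and 7.53% of all windows, on both strands.

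Zfp455, a KRAB gene of the chromosome 13 cluster, was the largest called increase with IFNg in either line. It stood at 7.63, 8.89, 10.1 and 6.72 CPM with IFNg and at 6.51, 5.34, 5.46 and 6.01 CPM with vehicle in mutant cells, 0.52 ± 0.10 (adjusted p = 6.7e-05 by edgeR). In wild-type cells it stood at 5.1, 5.08, 5.58 and 4.66 CPM with IFNg and at 3.43, 3.09, 3.3 and 3.34 CPM with vehicle, 0.63 ± 0.10 (adjusted p = 1e-05). In both lines every IFNg library lay above every vehicle library. Zfp202, whose human counterpart represses genes of lipid metabolism, rose by 0.39 ± 0.07 in mutant and 0.38 ± 0.07 in wild-type cells, the second not called with the structural RNA share in the fit (adjusted p = 0.099 by edgeR). Zfp142 rose by 0.40 ± 0.08 in mutant cells, and the KRAB gene Zfp599 by 0.37 ± 0.06 in wild-type cells. Means moved the same way in the other line. Zfp142 averaged 17.1 CPM with IFNg and 14.2 CPM with vehicle in wild-type cells, and Zfp599 13.4 and 11.6 CPM in mutant cells.

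Zfp949, a KRAB gene, was among the largest decreases in mutant cells. It stood at 2.39, 2.35, 2.49 and 2.64 CPM with IFNg and at 4.58, 4.14, 4.04 and 3.77 CPM with vehicle, -0.74 ± 0.10 (adjusted p = 6.1e-07). Zfp174, a repressor with a SCAN domain, differed by -0.93 ± 0.18 (adjusted p = 9.4e-05) and Zfp784 by -0.71 ± 0.15 (adjusted p = 0.00032) in mutant cells; both are overlapped by another gene on the opposite strand. In wild-type cells Zfp503, known from the developing striatum as Nolz1, stood at 3.46, 2.81, 2.56 and 3.31 CPM with IFNg and at 4.28, 4.03, 6.06 and 5.0 CPM with vehicle, -0.68 ± 0.12 (adjusted p = 2.9e-05). Zfp219, a cofactor of SOX9 in cartilage, differed by -0.74 ± 0.13 (adjusted p = 3e-05) and Zfp273 by -0.71 ± 0.17 (adjusted p = 0.0021) in wild-type cells; Zfp219 is overlapped by Arhgef40 on the opposite strand, and Zfp273 was not called with the structural RNA share in the fit (adjusted p = 0.37) or without wild-type vehicle libraries 1 and 4 (adjusted p = 0.094). With IFNg 0 members were called with a change of at least 2-fold in either line. Of all 14869 genes tested, 335 were called at least 2-fold higher and 125 lower in mutant cells, and 303 and 169 in wild-type cells.

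Pam3CSK4 gave unlike counts in the lines. In mutant cells 42 members were called higher and 21 lower, where 11.5 and 12.8% of all genes tested were, 24.3% in all, with a median of 0.04, against 0.00. In wild-type cells 15 were called higher and 73 lower, where 10.4 and 11.7% were, 22% in all, with a median of -0.06, against 0.00. Of the 154 KRAB members 5 were called higher and 60 lower in wild-type cells, and of the 110 others 10 and 12. Called in both lines with the same sign were 3 members, named after their values were seen: Zfp445 and Zfp568, a KRAB repressor of placental Igf2 transcripts, higher, and Zfp367 lower; of all genes tested 2.99 and 1.11% were. Called higher in mutant and lower in wild-type cells were 20 members, 15 with a KRAB box, and Zfp217, Zfp318 and Zfp507 were called lower in mutant and higher in wild-type cells, where 1.54 and 1.42% of all genes tested were called with these opposite signs.

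The wild-type count rests on a few vehicle libraries. Without wild-type vehicle library 1 it was 49 and without library 4 it was 55, and without both it was 5. The share of structural RNA, as defined above, moved with it. It was 27.3 ± 2.12% with Pam3CSK4 and 25.7 ± 1.78% with vehicle in mutant libraries, and 14.8 ± 1.47% with Pam3CSK4 and 23.9 ± 4.17% with vehicle in wild-type libraries (SD, n = 4 each). Libraries 1 and 4 of wild-type vehicle had 25.8 and 28.8%, and libraries 2 and 3 had 19.4 and 21.8%. With this share as a covariate in the edgeR fit, 0 members were called in wild-type cells and 21 had an unadjusted p under 0.05. DESeq2 without the covariate called 96. Wild-type shares were 13.6 to 16.9% with Pam3CSK4, 13.3 to 17.7% with IFNg and 12.8 to 14.2% with both agonists. All lay below the 19.4 to 28.8% with vehicle. In wild-type cells this fit therefore cannot tell a treatment response apart from the share, here and wherever it is used. In mutant cells the covariate left 68 called, 46 higher and 22 lower.

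**Figure D4:**
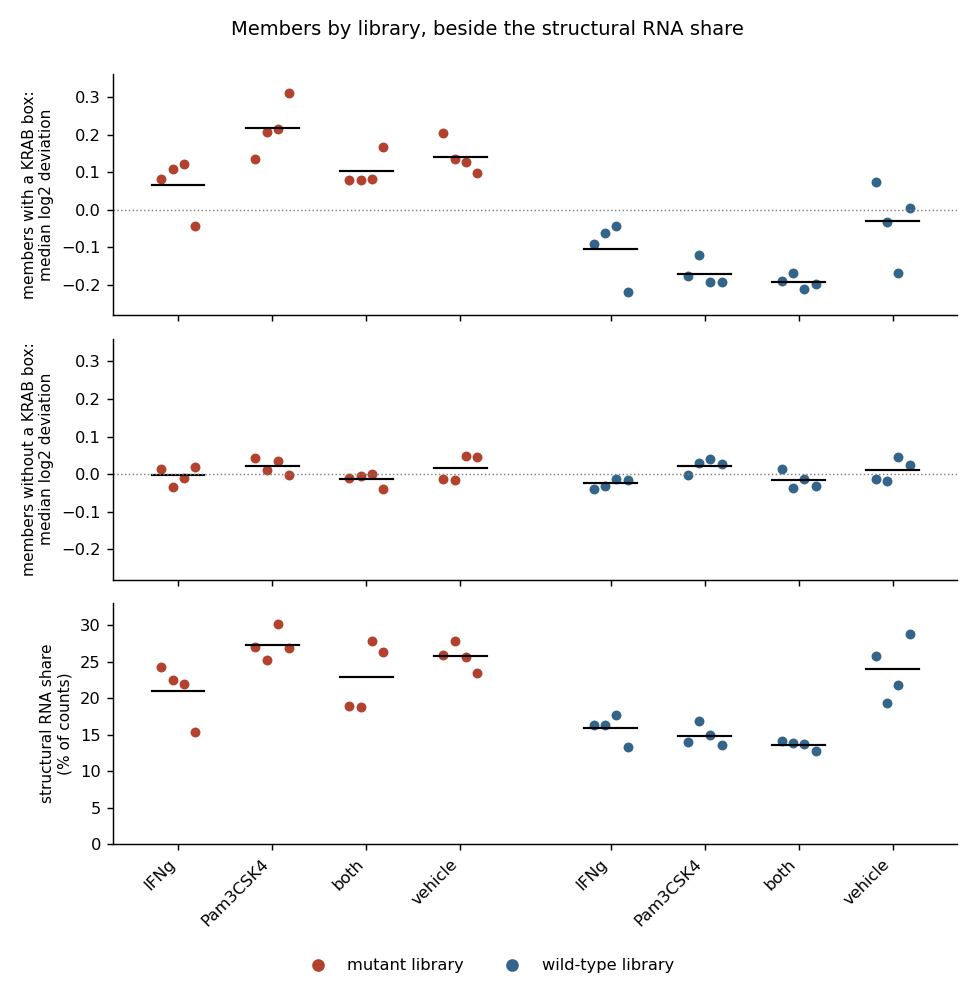
For each library, the median over 154 KRAB members (top) and 110 members without a KRAB box (middle) of log2 CPM, pseudocount 0.1, minus the gene's mean over 32 libraries, and the structural RNA share in % (bottom); lines are group means. KRAB medians run highest in mutant cells with Pam3CSK4 (mean 0.22) and lowest in wild-type cells with both agonists (mean -0.19), whereas members without a KRAB box stay within -0.04 and 0.05.

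In the 32 libraries the median deviation of KRAB members from the gene's own mean was 0.22 ± 0.07 in mutant cells with Pam3CSK4 and 0.14 ± 0.04 with vehicle, and it was -0.17 ± 0.03 in wild-type cells with Pam3CSK4 and -0.03 ± 0.10 with vehicle (SD, n = 4 each). Wild-type vehicle libraries ranged from -0.17 to 0.07. The mutant IFNg library with the lowest structural share, 15.4%, also had the lowest KRAB median of its group, -0.04, where the other libraries had 0.08 to 0.12. Lowest share and lowest median also met in mutant cells with vehicle and both agonists and in wild-type cells with IFNg. They did not meet in the remaining groups, as in wild-type vehicle, where 19.4% went with -0.032 and 21.8% with -0.167. In mutant cells with both agonists, shares of 18.9 and 27.8% had medians of 0.080 and 0.083. The relation was not tested. In members without a KRAB box every group mean lay between -0.02 and 0.02.

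Among named members, Zfp958 and Zfp930, both with a KRAB box, diverged. Zfp958 stood at 50, 55.2, 58.7 and 63.3 CPM with Pam3CSK4 and at 47.1, 41.7, 39.5 and 39.1 CPM with vehicle in mutant cells, 0.44 ± 0.14 (adjusted p = 0.019 by edgeR), not called without mutant Pam3CSK4 library 4 or mutant vehicle library 3 or 4 (adjusted p = 0.053 to 0.068). In wild-type cells it stood at 30.8, 36, 32.2 and 29.5 CPM with Pam3CSK4 and at 63.2, 47.9, 41.4 and 50.8 CPM with vehicle, and its difference of response between lines was 1.10 ± 0.19 (adjusted p = 0.00018). In each line the Pam3CSK4 and vehicle libraries did not overlap. Zfp930 had a difference of response of 1.09 ± 0.20 (adjusted p = 0.00035), and 0.53 with the structural RNA share in the fit (adjusted p = 0.062). Zfp345 had 2.70 ± 0.67 (adjusted p = 0.0029), but its wild-type levels were 0.0297, 0, 0 and 0.0182 CPM with Pam3CSK4 and 0.0788, 0.0337, 0.128 and 0.0715 CPM with vehicle, close to the level of a few counts, so the size of that fold depends on the prior count. Among members averaging 1 CPM in a group compared, Zfp85, Zfp273 and Zfp97 had the largest called decreases in wild-type cells, -0.81 ± 0.16, -0.80 ± 0.18 and -0.70 ± 0.16. None of these 3 was called with the structural RNA share in the fit (-0.22, -0.23 and -0.25) or without wild-type vehicle libraries 1 and 4 (-0.49, -0.52 and -0.52).

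Several members without a KRAB box had a more negative response in mutant cells. Zfp608, which restrains Rag gene expression in developing T cells, stood at 55.2, 52.3, 52.9 and 52.4 CPM with Pam3CSK4 and at 70.1, 65.8, 68.1 and 72.2 CPM with vehicle in mutant cells, -0.38 ± 0.05 (adjusted p = 8.3e-08 by edgeR). In wild-type cells it stood at 70.4, 70.6, 70.1 and 73.6 CPM with Pam3CSK4 and at 62.2, 64.9, 72.8 and 63.3 CPM with vehicle. Those groups overlapped, and the difference of response was -0.49 ± 0.07 (adjusted p = 1.5e-06). Zfp318 fell by 0.23 on the log2 scale in mutant cells (adjusted p = 0.0068) and rose by 0.28 ± 0.07 in wild-type cells (adjusted p = 0.0028), with 11.9, 11, 11.4 and 11.9 CPM in mutant and 9.19, 8.66, 8.02 and 8.11 CPM in wild-type libraries with Pam3CSK4. Zfp839 had a difference of response of -0.49 ± 0.12 (adjusted p = 0.0024), and is overlapped by Mpc1-ps on the opposite strand. In mutant cells Zfp831 differed by -0.49 ± 0.14 (adjusted p = 0.008). In wild-type cells Zfp341, whose human counterpart controls transcription of STAT3, rose by 0.41 ± 0.12 (adjusted p = 0.014) and Zfp462, a repressor of lineage genes in embryonic stem cells, by 0.28 ± 0.08 (adjusted p = 0.012). The wild-type calls of Zfp318, Zfp341 and Zfp462 were lost with the structural RNA share in the fit (adjusted p = 0.51, 0.54 and 0.99) and without wild-type vehicle libraries 1 and 4 (adjusted p = 0.065, 0.22 and 0.33). Those of Zfp341 and Zfp462 were also lost without wild-type vehicle library 1 (adjusted p = 0.059 and 0.058), that of Zfp462 without wild-type vehicle library 4 (adjusted p = 0.062) or Pam3CSK4 library 1 (adjusted p = 0.054), and that of Zfp341 with these groups compared alone (adjusted p = 0.055).

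Tested over the family, 81 members had a more positive Pam3CSK4 response in mutant cells and 27 a more negative one, where 14.3 and 12.3% of all genes tested did, 26.6% in all. Of the 154 KRAB members 65 were more positive and 10 more negative, and of the 110 others 15 and 17. This contrast depended on the fit. With the structural RNA share in the fit it was 8 and 1 for KRAB members and 6 and 4 for the others. Without wild-type vehicle libraries 1 and 4 it was 35 and 4, and 13 and 6. For IFNg only Zfp276 was called, at 0.29 ± 0.08 (adjusted p = 0.036 by edgeR), where 0.827 and 0.820% of all genes were called with a more positive and a more negative response, 1.65% in all. It stood at 13, 13.8, 13 and 12.9 CPM with IFNg and at 11.2, 11.2, 11.7 and 11.7 CPM with vehicle in mutant cells, and at 20.7, 19.5, 19 and 19.5 CPM with IFNg and 20.3, 20.4, 22.5 and 20.5 CPM with vehicle in wild-type cells. The call was lost with protein-coding genes only (adjusted p = 0.053), without the low-count filter (adjusted p = 0.074), and on leaving out any of 9 of the 16 libraries in turn (adjusted p = 0.056 to 0.085). With protein-coding genes only the 2 members called were both negative. In the comparison as reported 0 members had a called negative difference, 12 had one at an unadjusted p under 0.05, and DESeq2 called 1. For both agonists 39 members were more positive and 10 more negative in mutant cells, where 8.80 and 6.99% of all genes were, 15.8% in all. That count fell to 30 in all without mutant library 4 of both agonists and was 74 without wild-type vehicle library 3. With the structural RNA share added to the fit, differences of response numbered 20 for Pam3CSK4, 2 for IFNg and 18 for both agonists.

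With both agonists, decreases outnumbered increases in each line. In mutant cells 52 members were called higher and 81 lower, where 23.7 and 20.1% of all genes tested were, 43.8% in all, and in wild-type cells 31 were called higher and 104 lower, where 21.2 and 22.4% were, 43.7% in all. The medians were -0.05 in mutant and -0.13 in wild-type cells, against -0.01 and -0.03 over all genes. With the structural RNA share in the fit, wild-type KRAB members numbered 14 higher and 22 lower and the others 12 and 18. Called higher in both lines were 22 members, 42.3% of the mutant and 71% of the wild-type list, and lower in both 50, 61.7 and 48.1% of the lists; of all genes tested 15.9 and 11% were. With opposite signs 5 were called, named after their values were seen: Zfp81, Zfp345, Zfp719 and Zfp930 were higher in mutant and lower in wild-type cells, and Zfp507 the reverse, where 0.498 and 0.451% of all genes tested were called so.

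Zfp831, which carries 2 fingers, had the largest decrease in mutant cells. It stood at 0.835, 1.27, 1.14 and 0.846 CPM with both agonists and at 2.4, 2.58, 2.76 and 2.3 CPM with vehicle in mutant cells, -1.28 ± 0.15 (adjusted p = 3.8e-09 by edgeR). In wild-type cells it stood at 2.01, 2.06, 1.77 and 2.04 CPM with both agonists and at 3.29, 3.46, 4.12 and 3.12 CPM with vehicle, -0.83 ± 0.13 (adjusted p = 4.1e-06). Neither line overlapped. Zfp160, a KRAB gene of the chromosome 17 cluster, stood at 51.9, 51.1, 51.6 and 53.6 CPM with both agonists and at 37.2, 35.7, 33.3 and 33.6 CPM with vehicle in mutant cells, 0.57 ± 0.06 (adjusted p = 1.6e-10). Zfp455 was higher by 0.72 ± 0.10 in mutant and 0.59 ± 0.10 in wild-type cells. In wild-type cells Zfp296, which promotes reprogramming to pluripotency, overlapped by Gemin7 on the opposite strand, rose by 0.55 ± 0.10 (adjusted p = 4.5e-05) and Zfp202 by 0.49 ± 0.07 (adjusted p = 1.7e-06), while Zfp273 fell by 1.03 and Zfp85 by 0.87 on the log2 scale; neither was called with the structural RNA share in the fit (adjusted p = 0.10 and 0.31). Zfp174 and Zfp784 fell by 1.04 and 0.98 on that scale in mutant cells. Differences of response to both agonists were called for Zfp608 at -0.42 ± 0.07, for Zfp473, a component of histone mRNA processing known in human cells, at -0.42 ± 0.14, and for Zfp39 at -0.33 ± 0.08. Vrk3, of higher count, overlaps Zfp473 on the opposite strand over 2638 bases, so its counts are uncertain. With the structural RNA share in the fit Zfp473 and Zfp39 were not called (adjusted p = 0.26 and 0.07), and Zfp473 also lost its call without any of 4 single libraries (adjusted p = 0.061 to 0.085).

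Zfp91 showed a response in which treatments and lines can be set side by side. In mutant cells it stood at 177, 184, 179 and 173 CPM with IFNg, at 194, 199, 198 and 204 CPM with Pam3CSK4, at 214, 213, 211 and 210 CPM with both agonists and at 163, 157, 165 and 163 CPM with vehicle. These 4 groups of mutant libraries did not overlap. The differences from vehicle were 0.14 with IFNg (adjusted p = 0.00087 by edgeR), 0.29 with Pam3CSK4 (adjusted p = 7e-09) and 0.39 with both agonists (adjusted p = 2.6e-12). In wild-type cells the values were 246, 258, 255 and 230 CPM with IFNg, 216, 214, 215 and 211 CPM with Pam3CSK4, 238, 246, 229 and 238 CPM with both agonists and 235, 223, 211 and 222 CPM with vehicle. There the difference with Pam3CSK4, -0.06, did not pass the test (adjusted p = 0.21). Wild-type values with IFNg, 230 to 258 CPM, and with both agonists, 229 to 246 CPM, lay mostly above vehicle, 211 to 235 CPM, with overlap. Their fitted differences are not given here. Zfp91 is overlapped by Cntf on the same strand over 1973 bases.

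**Figure D5:**
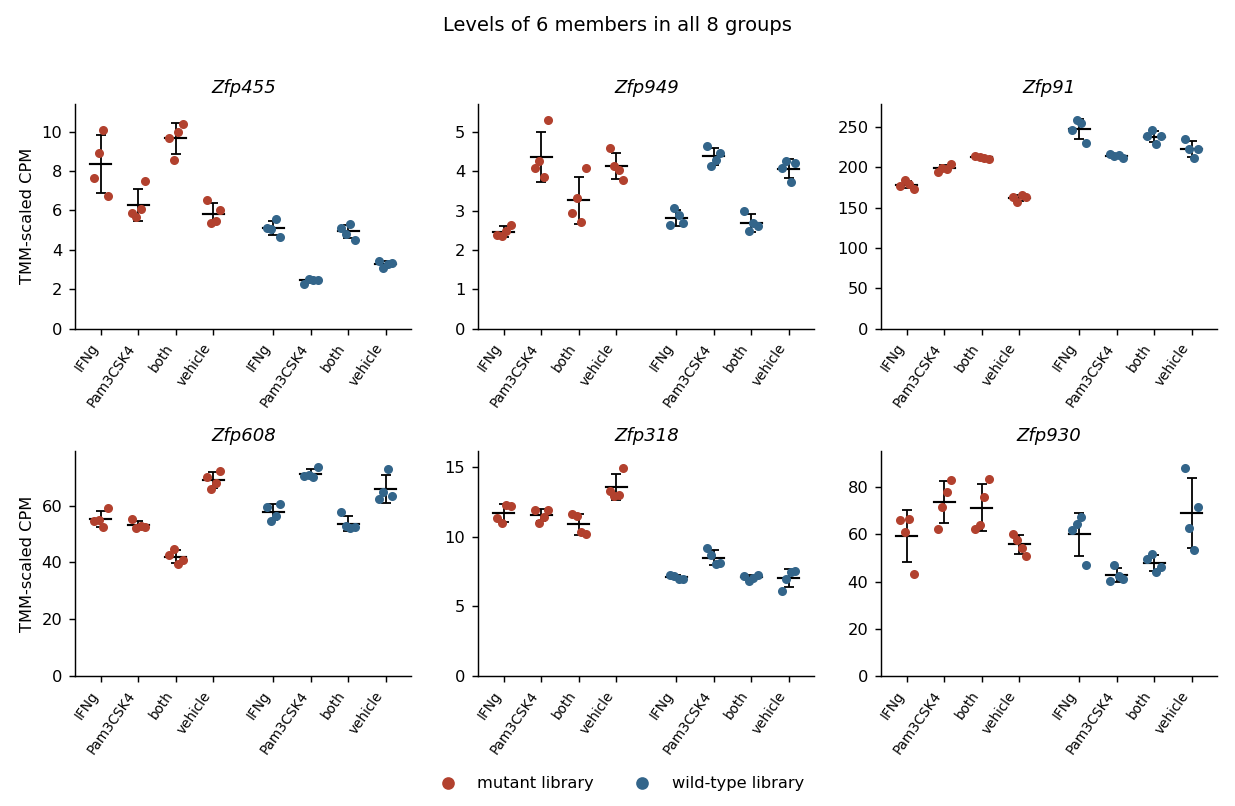
Levels of Zfp455, Zfp949, Zfp91, Zfp608, Zfp318 and Zfp930 in all 8 groups; points are libraries (n = 4 per group), bars the mean and SD, the vertical axis TMM-scaled CPM from 0, mutant groups left and wild-type groups right, vehicle last in each. Zfp455 is high with IFNg and with both agonists in each line, and Zfp608 is lower with Pam3CSK4 in mutant cells (53.2 against 69.0 CPM with vehicle) but not in wild-type cells (71.2 against 65.8 CPM).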

How the data were processed

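RNA of 32 libraries, 4 in each of 8 groups, was sequenced after ribosomal RNA reduction with a stranded total RNA kit, per the labels' protocols. The authors used STAR 2.5.2b, RSEM 1.3.0 and mm10, per the submitters' processing notes; no annotation release, trimming or strand setting was given in the sources used here. The deposited tables hold expected counts, TPM, FPKM and lengths for each gene, and the expected counts, of which 11.07% of non-zero values are not whole, were rounded for the tests. Deposited TPM and FPKM values, normalized by the authors for length and depth, were not used for tests, and the effective length served for levels per kilobase. Identifiers were matched to GENCODE vM21 without their version, 55394 of 55487.

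Counts were tested with edgeR 4.0.16 in R 4.3.3: filterByExpr on the 8 groups, TMM scaling, a robust quasi-likelihood fit of 8 group means with 24 residual degrees of freedom, and 13 contrasts. DESeq2 1.42.0 was an alternative. The fit was tested on simulated data. The members and lists were chosen with earlier results of these data known. Named were all silent members, the 6 largest increases and decreases between lines that were called in all treatments without overlap, up to 3 increases and 3 decreases for each treatment comparison and each difference of response, the 5 members of highest level per kilobase, and up to 3 of each list or 4 corepressors. A KRAB box was called from reading frames of GENCODE transcripts. Structural RNA means genes of the mitochondrial chromosome and the small RNA classes, 5767 genes. Alternatives were another scaling, no filter, protein-coding genes only, groups compared alone, a replicate block, structural RNA share as covariate, other limits of the rules, and libraries left out.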

Additional observations from a re-analysis of the deposited data

Results flagged for a closer look

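Groups of 4 libraries were searched for a library whose gap to its nearest neighbour, as a share of the group's range, exceeded Dixon's critical value at 95%. Of 339 groups of named members 24 had one, and chance gives about 1 in 20. In mutant library 4 with IFNg, 7 members lay below the other 3 libraries: Zfp938 had 5.31 CPM, against 7.41 to 7.58 CPM; Zfp987 had 8.33 CPM, against 11.5 to 11.9 CPM; Zfp992 had 46.2 CPM, against 62.5 to 63.5 CPM. In the same library Zfp677 had 2.45 CPM, against 4.07 to 4.31 CPM, and Zfp958 had 30.8 CPM, against 46.1 to 46.3 CPM. Zfp97 had 8.11 CPM there, against 12.2 to 13.1 CPM, and Zfp345 had 6.99 CPM, against 9.76 to 10.2 CPM. All 7 carry a KRAB box, and the library's structural RNA share was 15.4%, the lowest of its group; the part of that share was not tested in these genes.

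In other mutant libraries, Zfp276 had 13.8 CPM and Zfp599 had 14.3 CPM in library 2 with IFNg, above the rest. Zfp142 had 12 CPM in library 4 with both agonists, below the rest. With vehicle, Zfp296 had 4.91 CPM in library 2 and Zfp207 had 414 CPM in library 1, each above the rest. In wild-type libraries with Pam3CSK4, Zfp991 had 2.51 CPM in library 1 and Zfp341 had 1.72 CPM in library 2, below the rest, while Zfp599 had 23 CPM and Zfp273 had 4.57 CPM in library 2 and Zfp608 had 73.6 CPM in library 4, above the rest. With both agonists Zfp831 had 1.77 CPM and Zfp273 had 3.0 CPM in library 3, below the rest, and Zfp608 had 57.7 CPM in library 1, above. With IFNg Zfp677 had 5.88 CPM and Zfp160 had 31.2 CPM in library 4, below the rest. With vehicle Zfp276 had 22.5 CPM, above, and Zfp422 had 104 CPM, below, in library 3.

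Responses that differed between mutant and wild-type cells by edgeR's test of the difference were as follows, as log2 of mutant minus wild-type. For IFNg it was Zfp276 at 0.29. For Pam3CSK4 they were Zfp345 at 2.70, Zfp958 at 1.10, Zfp930 at 1.09, Zfp318 at -0.51, Zfp839 at -0.49 and Zfp608 at -0.49. For both agonists they were Zfp345 at 1.92, Zfp958 at 0.89, Zfp930 at 0.88, Zfp608 at -0.42, Zfp473 at -0.42 and Zfp39 at -0.33.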

How the results depend on the processing

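With structural RNA share as a covariate, members called in wild-type cells were 61 for IFNg, against 108 without it. For Pam3CSK4 they were 0 (88) and for both agonists 66 (135). The differences of response numbered 2 for IFNg (1), 20 for Pam3CSK4 (108) and 18 for both agonists (49). Every treated wild-type library had a lower share than every wild-type vehicle library, so treatment and share cannot be told apart there. The cause was not tested. Without wild-type vehicle libraries 1 and 4 the counts were 5 for Pam3CSK4 in wild-type cells, and 2, 59 and 24 for the differences. With the 2 groups compared alone, Pam3CSK4 in wild-type cells gave 58. The IFNg difference gave 2 with a replicate block, 2 with protein-coding genes only, both negative and without Zfp276, and 4 with DESeq2. The silent members numbered 4 below 0.05 CPM and 8 below 0.5 CPM. Leaving out 1 library gave 148 to 169, 137 to 158, 195 to 199 and 175 to 185 members called between lines with vehicle, IFNg, Pam3CSK4 and both agonists; 87 to 95, 46 to 69 and 116 to 129 for IFNg, Pam3CSK4 and both agonists in mutant cells; 88 to 111, 49 to 111 and 118 to 144 in wild-type cells; 0 to 6, 90 to 126 and 30 to 74 for the differences; and 6 to 7 silent members. The IFNg difference was 0 without any one of mutant IFNg library 1, mutant vehicle libraries 1 and 2, wild-type IFNg libraries 2 and 3 and wild-type vehicle libraries 3 and 4, and 4 without wild-type vehicle library 1 and 6 without library 2. Same-numbered libraries did not pair, since 2 of 40 correlations of their deviations passed 0.1 (range -0.237 to 0.227) and 58 of 224 best matches had the same number. With the replicate block the line comparisons gave 157, 152, 207 and 184 members called. Of 1158 recomputed values of named genes 1099 kept their direction and side of the threshold, 59 lost the call and 0 reversed; 18 of 67 named results lost it somewhere, 15 under the covariate, 9 of 49 without wild-type vehicle libraries 1 and 4 and 7 without 1 library. Beside those marked in the report, they include the differences of response to both agonists of Zfp345 and Zfp930 under the covariate (adjusted p = 0.09 and 0.057 by edgeR) and the rise of Zfp930 with Pam3CSK4 in mutant cells without any of 6 single libraries (adjusted p = 0.063 to 0.13). Zfp genes with near-identical copies are limited by shared reads, and members near 0 by counting.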
